A study of Caenorhabditis elegans with 6 samples.

Results

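The insulin receptor pathway to DAF-16 was followed through 9 genes, chosen by name and matched to the counted identifiers by WormBase symbol: daf-2, age-1, pdk-1, akt-1, akt-2, sgk-1, daf-18, daf-16 and ist-1. All 9 were found among the 46756 genes of the count table, and all 9 were among the 18428 genes that had at least 10 counts over the 6 libraries and were tested. Messenger RNA of whole C. elegans hermaphrodites was sequenced on adulthood day 2, with 3 libraries of worms raised 10 per plate and 3 libraries of worms raised alone, to ask which transcripts respond to population density. Both groups were of strain ACH93, in the N2 wild-type background, fed E. coli OP50. It expresses a red RPN-5 proteasome reporter and a green mitochondrial reporter, both under the myo-3 promoter of body wall muscle, so solitary worms carry the reporters as well. How many plates were pooled for a library is not given in the sources used here. The labels call the 3 libraries of each group biological replicates.

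In C. elegans, insulin-like peptides from neurons and intestine bind the receptor DAF-2, which activates the PI3 kinase AGE-1. AGE-1 makes the lipid PIP3, and the phosphatase DAF-18 removes it. PIP3 lets PDK-1 activate the kinases AKT-1, AKT-2 and SGK-1, and AKT phosphorylates the FOXO transcription factor DAF-16 and keeps it in the cytoplasm. When the signal is low, DAF-16 enters the nucleus and switches on stress resistance and longevity genes, and in larvae the same pathway, together with ascaroside pheromones that report crowding, governs entry into the dauer stage. Most of this regulation acts on protein activity and location, and transcript levels of the pathway genes do not measure it.

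Library totals lay between 57077055 and 62794403 counts in worms grown 10 per plate and between 55176436 and 62269301 in solitary worms. Whole worms were sampled, so fewer cells of a type and less RNA per cell cannot be told apart. Summed marker levels of muscle, intestine, neurons, germline, early embryo and sperm overlapped between the growth conditions. Some sums rest mainly on 1 gene, vit-6 for intestine, snb-1 for neurons and fer-1 for sperm. Of the single markers in these sums, myo-3, glp-1, ges-1 and nhr-60 were higher and unc-119 lower at 10 worms per plate without overlap. Over all tested genes 18.3% did not overlap, and none of these markers had an adjusted p under 0.05 in edgeR. The sum of the 4 hypodermal markers did not overlap between the growth conditions. It was 131 to 181 CPM (the usual per-million counts, scaled by edgeR's TMM method) at 10 worms per plate and 190 to 219 CPM in solitary worms. Almost all of it came from the adult collagen gene col-19, and dpy-7, rol-6 and bli-1 each overlapped. Of 5 sperm marker identifiers, 3 had no count in any library. The larval collagen gene rol-6 had 154 counts in replicate 3 of worms grown 10 per plate and 135 in solitary replicate 2, against 1 to 4 in the other libraries. dpy-7, another cuticle collagen gene, had 12 counts in solitary replicate 3, against 155 to 179 at 10 worms per plate and 139 and 270 in the other solitary libraries. The part of these differences in the results below was not tested. Solitary replicate 3 stood apart from the other solitary libraries in several genes described here, and for many of them the fold change without it is also given. Chi-square per degree of freedom, which rises with differences beyond counting noise, was 6.28 between solitary replicates 1 and 2. It was 21.2 and 25 for the pairs with solitary replicate 3, and 13.7 to 18.4 between libraries of worms grown 10 per plate. Leaving out solitary replicate 3 thus keeps the most alike pair.

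The pathway genes differed widely in abundance, and the phosphatase exceeded every kinase. Per kilobase of exon, daf-18 had the highest level, 300 ± 4.29 CPM per kilobase at 10 worms per plate and 292 ± 6.55 in solitary worms (SD, n = 3 libraries each). It lay at percentile 97.9 of the 16440 tested protein-coding genes. akt-1 followed with 140 ± 1.59 CPM per kilobase at 10 worms per plate and 139 ± 2.70 in solitary worms. Within each of the 6 libraries daf-18 was 2.09 to 2.15 times as abundant per kilobase as akt-1, and 7.65 to 8.50 times as abundant as age-1, the kinase it opposes.

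The middle of the order held age-1, daf-16, sgk-1 and daf-2. age-1 reached 38.8 ± 0.431 CPM per kilobase at 10 worms per plate and 35.4 ± 0.743 in solitary worms, and daf-16 reached 36.3 ± 2.47 and 31.1 ± 3.16 in the same groups. sgk-1 averaged 15.3 ± 0.230 CPM per kilobase at 10 worms per plate and 14.1 ± 1.39 in solitary worms, beside 14.9 ± 0.699 and 13.2 ± 0.285 for the receptor gene daf-2. The ranges of age-1 and daf-16 over the 6 libraries overlapped, as did those of sgk-1 and daf-2. Within libraries age-1 exceeded daf-16 in 6 of 6, by 1.001 to 1.22 times, whereas sgk-1 exceeded daf-2 in 3 of the 6 libraries. With the longest transcript as the length in place of all exons, daf-16 (44.9 CPM per kilobase over the 6 libraries) came before age-1 (37.1), and daf-2 (15.9) before sgk-1 (14.7).

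The lowest levels were those of pdk-1, akt-2 and ist-1. pdk-1 had 8.91 ± 0.473 CPM per kilobase at 10 worms per plate and 8.24 ± 0.376 in solitary worms, and akt-2 had 3.31 ± 0.321 and 3.26 ± 0.428. The paralogs were thus far apart, with akt-1 36.7 to 49.3 times as abundant per kilobase as akt-2 within a library. ist-1, which encodes a homolog of insulin receptor substrates, had 1.02 ± 0.197 CPM per kilobase at 10 worms per plate and 1.17 ± 0.200 in solitary worms, at percentile 35.1 of the protein-coding genes. No range of these 3 genes met that of a neighbour in the order.

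**Figure D1:**
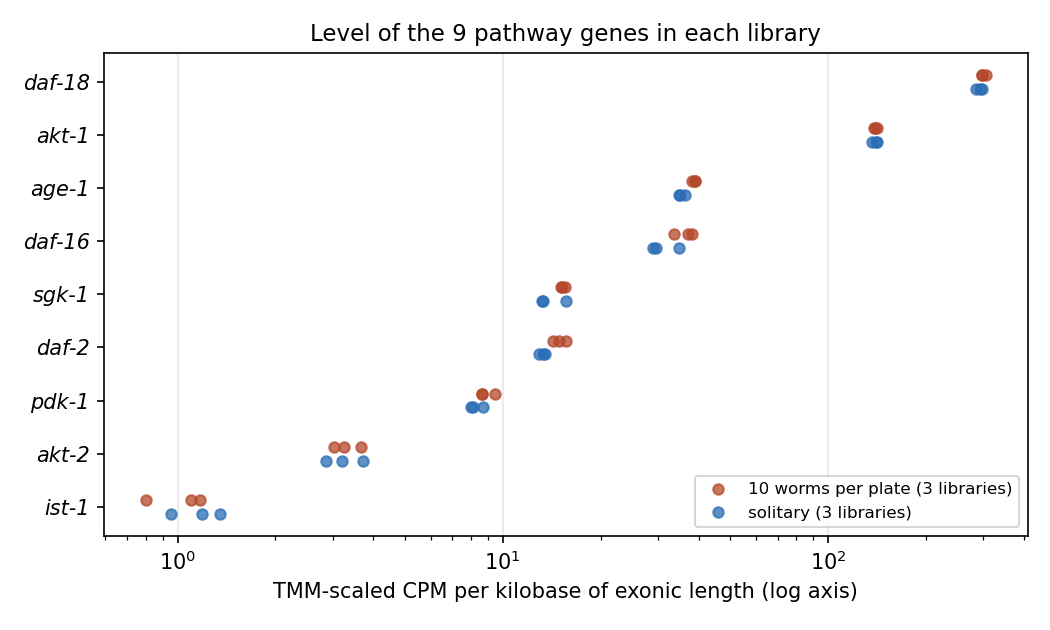
Level of each of the 9 genes in TMM-scaled CPM per kilobase of exonic length on a log axis, 1 point per library, with worms grown 10 per plate (red) above solitary worms (blue) for each gene. The genes span a 271-fold range from ist-1 to daf-18, and the growth conditions lie close together beside the distances between most genes.

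No pathway gene passed the test between growth conditions. In edgeR's quasi-likelihood test, 0 of the 9 genes reached an adjusted p under 0.05, beside 0.239% of all tested genes, and 0 reached it together with a change of more than 2-fold, beside 0.0109%. An unadjusted p under 0.05 was reached by 3 of them, daf-2, age-1 and daf-16, all higher at 10 worms per plate, where 11.9% of all tested genes reached it in either direction and 5.19% in that direction. The libraries of the growth conditions did not overlap for 2 of the 9, daf-2 and age-1, both higher at 10 worms per plate, beside 18.3% of all tested genes in either direction and 8.51% in that direction. DESeq2's Wald test called daf-2 alone (1 of 9 genes, beside 2.36% of all tested genes, or 4.76% of those it gave an adjusted p), and edgeR without a count minimum called daf-2 and daf-16 (2 of 9 genes, beside 2.94%). Of the 9 fold changes 8 were positive, as were 50.6% of all, with a median on the log2 scale of 0.11 over the 9 genes and 0.00265 over all tested genes.

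daf-2, the receptor gene (chromosome III of WBcel235, 2994514 to 3040846, minus strand, 7 annotated transcripts), had 130, 118 and 124 CPM at 10 worms per plate, against 107, 112 and 110 CPM in solitary worms. All 3 libraries of the first group lay above all 3 of the second. On the log2 scale the difference was 0.18 (standard error, SE, 0.04, 95% interval 0.08 to 0.27), a level 13.1% higher, with an adjusted p of 0.144 in edgeR (0.00163 unadjusted). In DESeq2 the adjusted p was 0.0328 for the same fold change of 0.18. Across genes, the fold changes between these libraries increased with transcript length, and daf-2 has 8296 nucleotides of exonic sequence. With a length trend removed from each library, the log2 fold change of daf-2 was 0.05 (95% interval -0.04 to 0.14, adjusted p 0.849 in edgeR), and its growth conditions overlapped.

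ist-1 (chromosome X, 7126648 to 7139666, plus strand), the adapter homolog, had the fewest reads of the 9 genes, with 197, 259 and 273 counts at 10 worms per plate and 257, 327 and 221 counts in solitary worms. These were 3.18, 4.35 and 4.66 CPM at 10 worms per plate, against 4.72, 5.37 and 3.79 CPM in solitary worms, so the conditions overlapped. Its log2 fold change of -0.19 (SE 0.17, 95% interval -0.57 to 0.19, adjusted p 0.735 in edgeR) was the only negative one, and it lay between -0.04 (without replicate 1 of the worms grown 10 per plate) and -0.32 (without solitary replicate 3) when single libraries were left out, with -0.07 without solitary replicate 2 and -0.30 without replicate 3 of the worms grown 10 per plate. Counting error alone gave single libraries a 95% Wilson half-width of up to 14% of the value, against at most 2.57% for daf-2.

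age-1, the catalytic subunit of PI3 kinase (chromosome II, 11519328 to 11527054, minus strand), had even values within each group, with 153, 150 and 153 CPM at 10 worms per plate, against 137, 142 and 138 CPM in solitary worms, without overlap. This gave a log2 fold change of 0.13 (SE 0.04, 95% interval 0.05 to 0.21), a level 9.57% higher, with an adjusted p of 0.183 in edgeR (0.00417 unadjusted). With the length trend removed it was 0.05 (95% interval -0.03 to 0.13, adjusted p 0.802), and the libraries still did not overlap. Of its 3929 exonic nucleotides, 192 (4.89%) are shared with exons of B0334.10 on the other strand. No source says that the counting used strand, so reads there cannot be assigned to one gene.

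daf-18, the gene of the lipid phosphatase (chromosome IV, 420011 to 425177, minus strand), had 995, 991 and 1017 CPM at 10 worms per plate, against 951, 981 and 993 CPM in solitary worms. The highest solitary library lay within the other group. The log2 fold change was 0.04 (SE 0.04, 95% interval -0.06 to 0.13, adjusted p 0.796 in edgeR), -0.03 with the length trend removed and 0.02 without solitary replicate 1. The bounds of that interval correspond to folds of 0.961 and 1.10.

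The transcript ratio of the kinase gene to the opposing phosphatase gene can be read within a library, where scaling between libraries plays no part. It does not measure the activity of either enzyme. The log2 ratio of age-1 to daf-18 counts was -2.70, -2.72 and -2.73 at 10 worms per plate, against -2.80, -2.78 and -2.85 in solitary worms. All 3 ratios of the first group were higher, as were the levels of age-1 themselves. The mean difference was 0.09, with p = 0.1 in a two-sided exact permutation test, the smallest that 3 libraries against 3 allow, and 0.3 after adjustment over the 3 ratios examined. With the length trend removed the difference was 0.08, and it stayed between 0.07 and 0.11 without any one library.

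None of the kinases below PI3 kinase separated the growth conditions. pdk-1 (chromosome X, 1321344 to 1327986, plus strand), which activates the AKT kinases, had 20.98, 22.92 and 20.90 CPM at 10 worms per plate, against 19.63, 19.29 and 21.01 CPM in solitary worms. The conditions overlapped, and the log2 fold change was 0.11 (95% interval -0.05 to 0.28, adjusted p 0.611 in edgeR), or 0.07 without its highest library, replicate 2 of the worms grown 10 per plate.

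akt-1 (chromosome V, 10248905 to 10252845, plus strand), the main AKT gene by level, had 316, 318 and 323 CPM at 10 worms per plate, against 310, 320 and 322 CPM in solitary worms. The conditions overlapped throughout. Its log2 fold change of 0.01 had a 95% interval from -0.08 to 0.09 (SE 0.04, adjusted p 0.961 in edgeR), which spans folds of 0.948 to 1.07. The sign of a value this near 0 turned with the length trend removed (-0.02), without solitary replicate 1 (-0.01) and without replicate 3 of worms grown 10 per plate (-0.00242).

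akt-2 (chromosome X, 14147700 to 14152070, plus strand) had 7.19, 7.75 and 8.70 CPM at 10 worms per plate, against 8.84, 7.62 and 6.82 CPM in solitary worms. Its spread within each group exceeded the difference between them, with a log2 fold change of 0.02 (95% interval -0.25 to 0.29, adjusted p 0.964 in edgeR) that was -0.06 once replicate 3 of either growth condition was left out. The log2 ratio of akt-1 to akt-2 counts averaged 5.34 ± 0.122 at 10 worms per plate and 5.36 ± 0.215 in solitary worms (SD, n = 3 each, p = 0.9 in a two-sided exact permutation test, 0.9 after adjustment over the 3 ratios), and the difference of -0.02 turned to 0.05 without replicate 3 of the worms grown 10 per plate and to 0.08 without solitary replicate 3.

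sgk-1 (chromosome X, 16254842 to 16262122, minus strand), a kinase related to AKT that TORC2 also activates, had 24.9, 25.4 and 24.7 CPM at 10 worms per plate, against 25.7, 21.8 and 21.7 CPM in solitary worms. Solitary replicate 1 was the highest of all 6 libraries. Its log2 fold change was 0.12 (SE 0.08, 95% interval -0.05 to 0.29, adjusted p 0.607 in edgeR), and it was 0.12 with the length trend removed, since the trend is near 0 at its 1636 exonic nucleotides. Without solitary replicate 1 it was 0.20 (adjusted p 0.487), and without solitary replicate 2 or 3 it was 0.08.

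daf-16, the FOXO factor at the end of the pathway (chromosome I, 10750498 to 10776703, plus strand, 11 annotated transcripts that the counts do not separate), had the largest fold change of the 9 genes over all 6 libraries as tested. ist-1 had a larger one with the length trend removed (-0.26) or without solitary replicate 3 (-0.32). The same held without replicate 2 (-0.24) or 3 (-0.30) of the worms grown 10 per plate. Without solitary replicate 1 sgk-1 had a larger one (0.20), and without solitary replicate 2 daf-2 did (0.186, against 0.184 for daf-16). daf-16 had 137, 141 and 124 CPM at 10 worms per plate, against 107, 109 and 128 CPM in solitary worms. Solitary replicate 3 lay among the libraries of the other condition, and the other 2 solitary libraries lay below all of them. The difference of 0.22 on the log2 scale (SE 0.08, 95% interval 0.04 to 0.40) is a level 16.6% higher, with an adjusted p of 0.323 in edgeR (0.0218 unadjusted) and 0.0851 in DESeq2.

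With the count minimum of 10 in place, daf-16 was called in edgeR once that solitary library was left out. This kept solitary replicates 1 and 2, the most alike pair of either group, and calls over all tested genes rose from 44 to 391. Without solitary replicate 3, the log2 fold change of daf-16 was 0.31 (SE 0.05) and its adjusted p 0.0197 in edgeR, and it was then 1 of 9 genes called, beside 2.17% of all tested genes. With the length trend removed as well, a combination chosen after the data had been seen, the log2 fold change was 0.25 and the adjusted p 0.0609, where 1.27% of all tested genes were called. Over all 6 libraries with the trend removed, it was 0.14 (95% interval -0.08 to 0.37, adjusted p 0.792). The log2 ratio of daf-16 to daf-2 counts averaged 0.11 ± 0.130 at 10 worms per plate and 0.06 ± 0.134 in solitary worms (SD, n = 3 each, p = 0.5 in a two-sided exact permutation test, 0.75 after adjustment over the 3 ratios), a difference of 0.05 that was -0.02 when replicate 2 of the worms grown 10 per plate was left out. The exons of daf-16 share 84 nucleotides (2.28%) with the noncoding RNA H36N01.5 on the other strand.

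**Figure D2:**
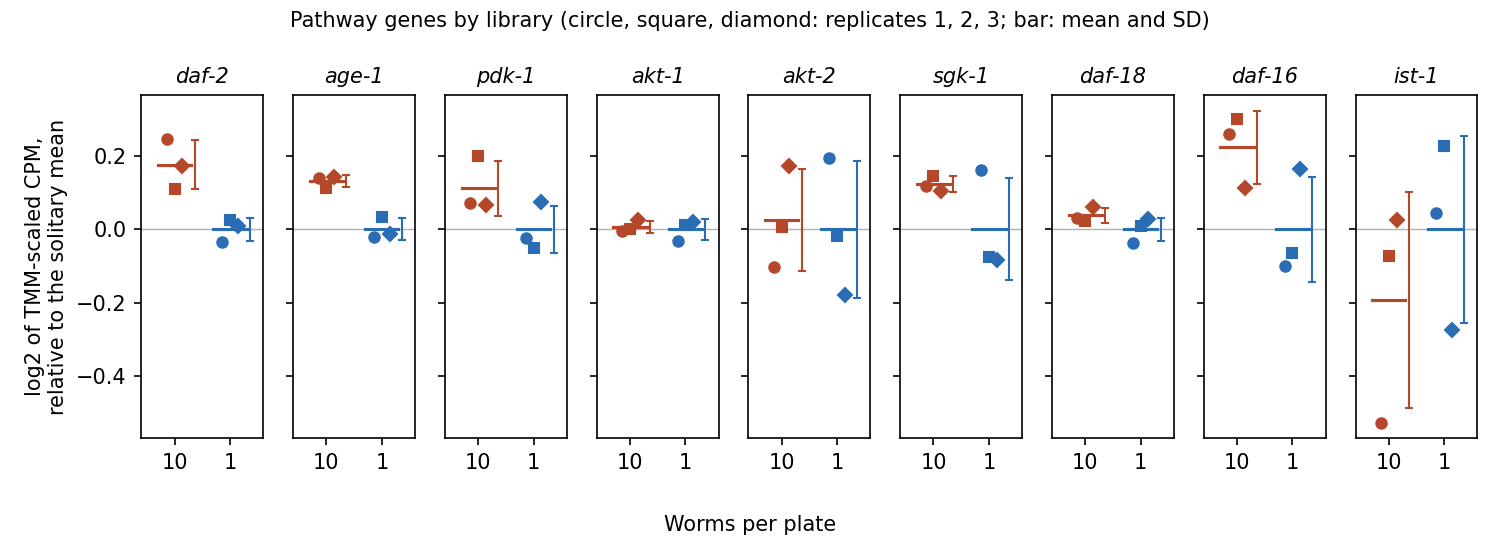
log2 of TMM-scaled CPM of each gene relative to the solitary mean, with worms grown 10 per plate (red) left of solitary worms (blue), 1 symbol per replicate, a bar at the mean and an error bar of 1 SD (n = 3 each). daf-2 and age-1 show no overlap between conditions, and the solitary diamond of daf-16 (replicate 3) sits among the red symbols.

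Leaving out solitary replicate 3 also left 6 of the 9 genes without overlap, 5 higher (daf-2, age-1, pdk-1, daf-18 and daf-16) and 1 lower (ist-1) at 10 worms per plate. With 3 libraries against 2, 34.1% of all tested genes had no overlap. With the length trend removed from all 6 libraries, only age-1 of the 9 had none, beside 12.8% of all tested genes, and 0 of the 9 had an unadjusted p under 0.05, beside 6.85%. The trend alone put the long gene daf-2 0.13 higher on the log2 scale at 10 worms per plate, of its 0.18, and daf-16 0.08 higher, of its 0.22. A difference that follows length and a difference in these genes themselves cannot be told apart in daf-2 and age-1.

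**Figure D3:**
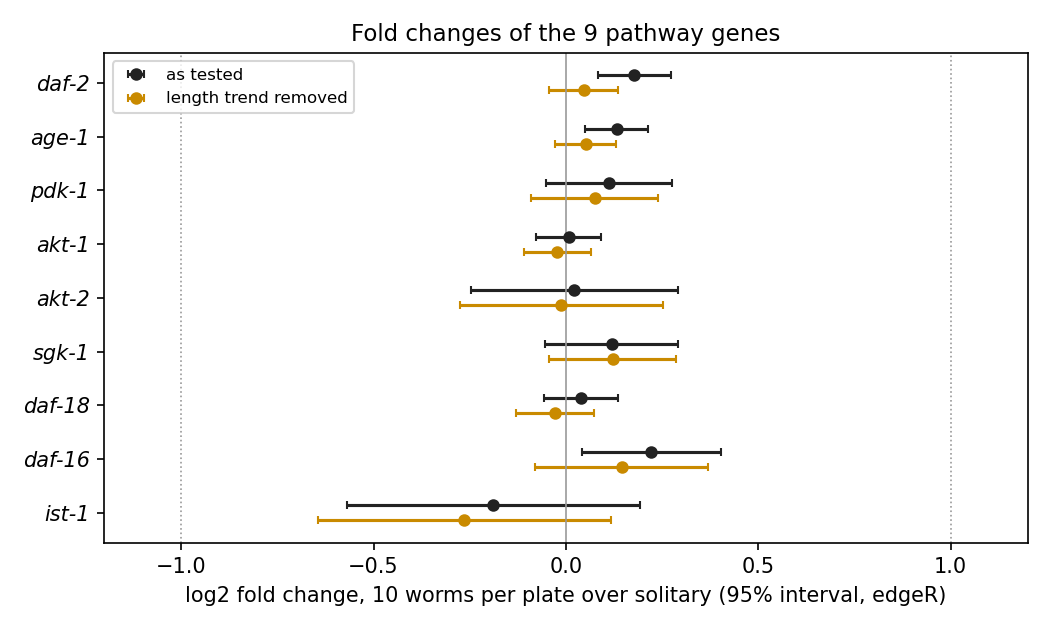
log2 fold change of worms grown 10 per plate over solitary worms for each gene with its 95% interval from edgeR, as tested (black) and with the length trend removed (ochre), and dotted lines at a 2-fold change in either direction. As tested, the intervals of daf-2, age-1 and daf-16 exclude 0 before adjustment for the number of genes, none does with the trend removed, and every interval lies inside the dotted lines.

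Other genes that act on the pathway were taken as a list of 25, of which 23 were tested. Of these, 0 had an adjusted p under 0.05 in edgeR (0.239% of all tested genes), 3 in DESeq2's Wald test (2.36%), and 7 an unadjusted p under 0.05, 5 of them higher and 2 lower at 10 worms per plate, beside 5.19% and 6.71% of all tested genes. DESeq2 gave no adjusted p to 3 of the 23, and over all genes it called 4.76% of those that had one. Without solitary replicate 3, 4 of the 23 had an adjusted p under 0.05 in edgeR (ftt-2, par-5, pptr-1 and rle-1), beside 2.17% of all tested genes. Over all 6 libraries the 23 genes had a median log2 fold change of 0.04, with 16 positive and 7 negative. rle-1, which encodes a ubiquitin ligase that acts on DAF-16, had the smallest p, with 104 ± 7.85 CPM at 10 worms per plate and 86.8 ± 1.64 CPM in solitary worms (SD, n = 3 each). Its log2 fold change was 0.26 (SE 0.05, adjusted p 0.0931 in edgeR and 0.00502 in DESeq2), and 0.18 with the length trend removed.

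pptr-1, a regulatory subunit of the phosphatase PP2A that acts on AKT-1, averaged 100 ± 3.61 CPM at 10 worms per plate and 88.4 ± 4.26 CPM in solitary worms (log2 fold change 0.18, adjusted p 0.158 in edgeR). Without solitary replicate 3, pptr-1 was at 0.22 (adjusted p 0.0302 in edgeR). sinh-1, a subunit of the complex TORC2, averaged 39.8 ± 0.446 CPM at 10 worms per plate and 34.6 ± 1.27 CPM in solitary worms (log2 fold change 0.20, adjusted p 0.165 in edgeR and 0.0365 in DESeq2). Both were higher in all 3 libraries of worms grown 10 per plate. The 14-3-3 genes, whose products bind phosphorylated DAF-16, ran the other way without overlap. Of the 23 tested genes of the list, 5 were higher and 3 lower without overlap, beside 18.3% of all tested genes in either direction. par-5 averaged 986 ± 32.3 CPM at 10 worms per plate and 1117 ± 40.2 CPM in solitary worms (log2 fold change -0.18, adjusted p 0.170 in edgeR and 0.0110 in DESeq2), and ftt-2 averaged 208 ± 0.275 and 236 ± 20.7 CPM in the same groups (log2 fold change -0.18, adjusted p 0.230 in edgeR). For ftt-2 solitary replicate 3 had 212 CPM, close to the 208 CPM at 10 worms per plate, and the other solitary libraries had 249 and 248 CPM. Without solitary replicate 3, ftt-2 was at -0.26 (adjusted p 0.00637 in edgeR) and par-5 at -0.21 (adjusted p 0.0486). The choice to name both 14-3-3 genes was made with their values known.

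The largest fold changes of that list rested on few reads. eak-4 had 1, 4 and 5 counts at 10 worms per plate and 1, 2 and 2 in solitary worms, and eak-6 had 5, 4 and 7 counts at 10 worms per plate and 3, 2 and 4 in solitary worms. No difference of such genes was detectable at this depth. pqm-1, a transcription factor that responds to insulin signaling in the opposite way to DAF-16, averaged 18.7 ± 2.26 CPM at 10 worms per plate and 15.4 ± 4.01 CPM in solitary worms (log2 fold change 0.29, adjusted p 0.634 in edgeR). It was 0.50 without solitary replicate 3 (adjusted p 0.0845) and 0.12 without solitary replicate 2.

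Genes known to be induced by DAF-16 were measured as a readout of the pathway. The list of 15 names matched 16 identifiers, since hsp-16.1 has 2, and 14 were tested, both hsp-16.1 identifiers having too few counts. Of the 14, 0 had an adjusted p under 0.05 in edgeR (0.239% of all tested genes), 1 in DESeq2's Wald test (2.36%), and 1 an unadjusted p under 0.05 (11.9%). DESeq2 gave no adjusted p to 9 of the 14, sod-3, mtl-1, dod-3 and hsp-16.2 among them. Over all genes it called 4.76% of those that had one. The fold changes of the 14 were positive for 12 and negative for 2, with a median of 0.11 on the log2 scale. The classic targets sod-3 and mtl-1 were low and did not separate the conditions, with 1.31 ± 0.251 CPM for sod-3 at 10 worms per plate and 1.25 ± 0.176 CPM in solitary worms, and 1.32 ± 0.391 CPM for mtl-1 at 10 worms per plate and 1.06 ± 0.0638 CPM in solitary worms.

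sip-1, a small heat shock protein gene, was the induced gene with the smallest p, and it was lower at 10 worms per plate. It averaged 1394 ± 50.1 CPM there and 1669 ± 46.5 CPM in solitary worms, without overlap. This was a log2 fold change of -0.26 (SE 0.05, adjusted p 0.0729 in edgeR and 3.63e-05 in DESeq2), -0.15 with the length trend removed (adjusted p 0.640) and -0.24 without solitary replicate 3 (adjusted p 0.0363 in edgeR). Its exons share 123 of 640 nucleotides with a noncoding RNA on the other strand. icl-1, the glyoxylate cycle enzyme, had a log2 fold change of 0.14 (adjusted p 0.497 in edgeR; 0.07 without replicate 1 of the worms grown 10 per plate), and the stress-induced hsp-16.2 of -0.58 (adjusted p 0.765), which was 0.15 without solitary replicate 2, the library with 117 of its counts, -0.97 without solitary replicate 3 and -0.94 without replicate 1 of the worms grown 10 per plate.

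lys-7, an intestinal lysozyme gene of the immune response, had the largest fold change among the induced genes. It had 405, 339 and 350 CPM at 10 worms per plate, against 172, 151 and 376 CPM in solitary worms. Solitary replicate 3 lay within the other group, and the other solitary libraries lay far below it. On the log2 scale the difference was 0.65 (SE 0.42, adjusted p 0.649 in edgeR), 1.18 without solitary replicate 3 (adjusted p 0.0042) and 0.41 without solitary replicate 2. dod-3, named for its place downstream of DAF-16, had 3.19, 2.96 and 3.84 CPM at 10 worms per plate, against 1.38, 2.02 and 3.22 CPM in solitary worms (log2 fold change 0.59, adjusted p 0.454 in edgeR, 0.97 with an adjusted p of 0.0396 without solitary replicate 3, and 0.34 without solitary replicate 1).

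Genes known to be lower when DAF-16 is active were the second readout. All 13 were tested, 0 had an adjusted p under 0.05 in edgeR (0.239% of all tested genes), 1 in DESeq2's Wald test (2.36%), and 3 an unadjusted p under 0.05, all higher at 10 worms per plate (5.19% in that direction). Their fold changes were positive for 7 and negative for 6. These 3 were the intestinal esterase ges-1 (log2 fold change 0.15, adjusted p 0.343 in edgeR), the nuclease nuc-1 (0.20, 0.362) and the insulin-like peptide ins-7, a DAF-2 agonist (0.50, 0.376). DESeq2 gave no adjusted p to 4 of the 13 genes, ins-7 among them, and over all genes it called 4.76% of those that had one. ins-7 had 4.82, 3.65 and 3.34 CPM at 10 worms per plate, against 2.24, 2.43 and 3.67 CPM in solitary worms, again with solitary replicate 3 among the other group. Without that library ins-7 was at 0.75 (adjusted p 0.0639) and ges-1 at 0.20 (adjusted p 0.0811). Without replicate 1 of the worms grown 10 per plate ins-7 was at 0.33 and nuc-1 at 0.10.

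The largest values of that list belonged to dod-24, dod-22 and dod-17, genes on chromosome IV for related proteins with CUB-like domains, where reads that fit several copies are not counted. dod-24 had 4.08, 5.29 and 3.36 CPM at 10 worms per plate, against 23.9, 21.8 and 4.49 CPM in solitary worms. Solitary replicate 3 lay within the range of worms grown 10 per plate. Its log2 fold change was -1.98 (SE 0.73, adjusted p 0.421 in edgeR), and -2.43 with an adjusted p of 0.000406 without that library.

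dod-17 had 4.64, 6.22 and 5.03 CPM at 10 worms per plate, against 11.3, 9.36 and 5.07 CPM in solitary worms (log2 fold change -0.70, adjusted p 0.452 in edgeR and 0.0497 in DESeq2). Without solitary replicate 3 it was -0.97, with an adjusted p of 0.00702 in edgeR, and without solitary replicate 1 it was -0.45. dod-22 had 5.35, 2.60 and 4.09 CPM at 10 worms per plate, against 9.36, 9.32 and 1.97 CPM in solitary worms (log2 fold change -0.78, adjusted p 0.753, -1.22 with 0.0990 without that library, and -0.49 without either other solitary library). In daf-16, lys-7, dod-24 and dod-17, solitary replicates 1 and 2 thus sat apart from the 4 other libraries. Over both output lists, solitary replicate 3 was the solitary library nearest to the mean of worms grown 10 per plate for 10 of 25 genes with a mean of at least 10 counts, or 40.0%, and for 35.1% of all genes with that mean count.

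**Figure D4:**
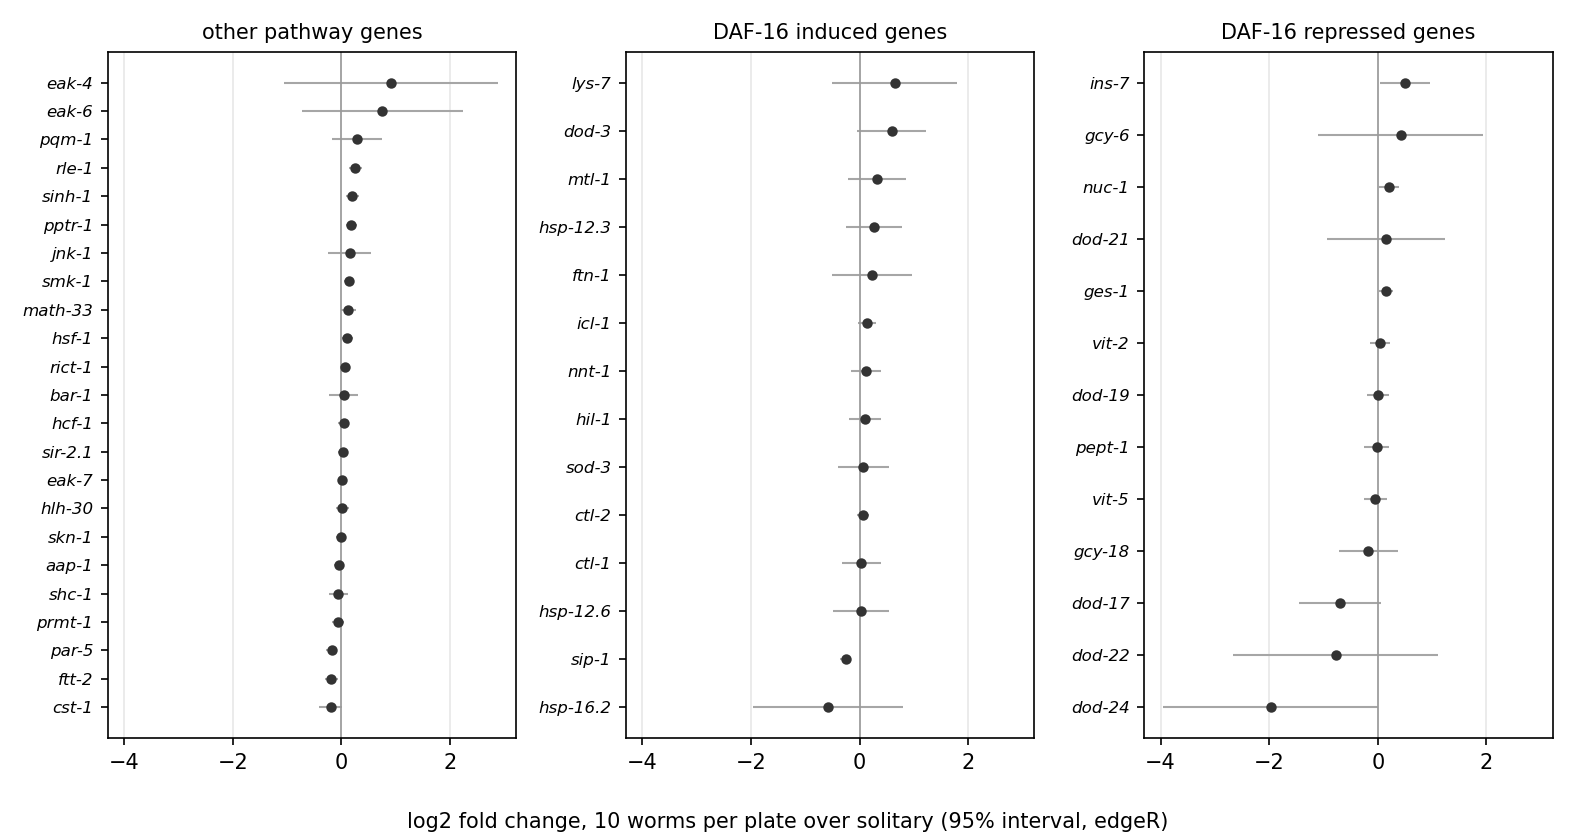
log2 fold change of worms grown 10 per plate over solitary worms with its 95% interval from edgeR, for the tested genes of the 3 lists, each ordered by value. Most points lie near 0, and the widest intervals belong to genes with few reads or with 1 solitary library apart from the others, such as dod-24 at -1.98.

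**Figure D5:**
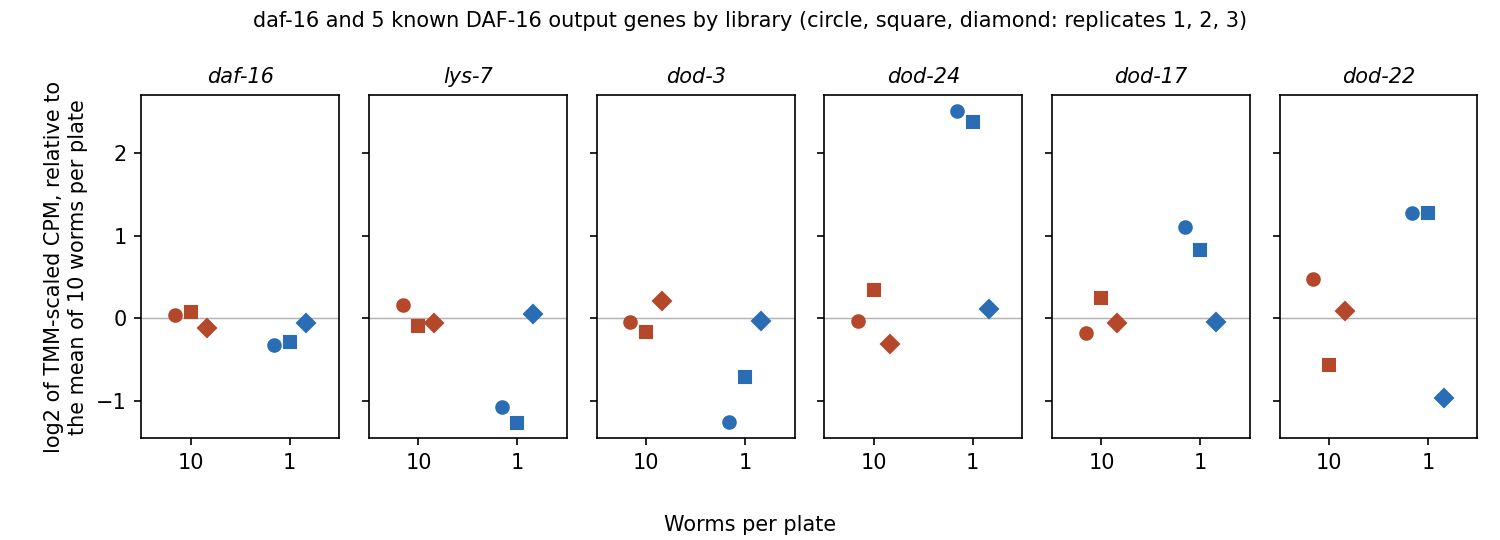
log2 of TMM-scaled CPM of daf-16 and of 5 known DAF-16 output genes, chosen after their values had been seen, relative to the mean of worms grown 10 per plate (red, left of solitary worms in blue), 1 symbol per replicate. The solitary diamond (replicate 3) lies near 0 for daf-16, lys-7, dod-3, dod-24 and dod-17, apart from the solitary circle and square.

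The profile of daf-16 over the libraries had few close neighbours. By the root mean square difference of centred log2 CPM over the 6 libraries, a description that uses the same libraries as the comparison, the nearest of 10490 genes with a mean of at least 100 counts were acox-3 (0.019), lonp-2 (0.032) and tra-1 (0.0361), and 13 genes came within 0.05. The nearest pathway gene to daf-16 was pdk-1 at 0.0852. For daf-2 the nearest were pxf-1 (0.0153), ogt-1 (0.0191) and tif-1A (0.0201), 250 genes came within 0.05, and age-1 was among these at 0.0404. Profiles this close to that of daf-2 were thus common, and those close to daf-16 were fewer.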

How the data were processed

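The authors trimmed paired-end reads with Trimmomatic 0.36, aligned them to WBcel235 with STAR 2.5.2b, and counted unique reads in exons with featureCounts (Subread 1.5.2). The deposited values are raw counts per gene without normalization. A second deposited table, the same counts divided by a factor per library, was not used here.

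Genes whose counts over all 6 libraries came to 10 or more were compared with edgeR 4.0.16 in R 4.3.3 (TMM, robust quasi-likelihood F test, Benjamini-Hochberg adjustment over 18428 genes, common biological coefficient of variation 0.116). Calls used an adjusted p under 0.05, with and without the study's absolute log2 fold change above 1. SE is the size of the fold change (log2) over the square root of F, and intervals are 95%. Symbols, exonic lengths (union of exons) and coordinates came from Ensembl release 115 and a name table.

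The length trend was a lowess curve (span 0.3) of each library's log2 ratio to the gene mean on log2 exonic length, fitted on genes with a mean of at least 100 counts and used as an offset. Wilson intervals cover counting error only, since reads carry no molecular identifiers. Other alternatives were DESeq2 1.42.0, other scalings and count minimums, a replicate block and each library left out. Scripts were tested on simulated data. Named genes are the 9 members and, per list, called genes or else the 3 smallest p and 3 largest fold changes, plus the 3 nearest profiles to daf-2 and daf-16. sod-3, mtl-1, par-5 and ftt-2 fall outside this rule. Members and lists were chosen with earlier results of these data known.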

Additional observations from a re-analysis of the deposited data

How the results depend on the processing

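Against 0 calls in each list over all 6 libraries, DESeq2's Wald test called 1 of the 9 pathway genes (daf-2, log2 fold change 0.18). It also called 3 of 23 other pathway genes, 1 of 14 induced and 1 of 13 repressed genes, beside 2.36% of all tested genes. Some genes of the 3 lists had no adjusted p in that test. Without a count minimum the counts were 2 (daf-2 at 0.175 and daf-16 at 0.219), 4, 2 and 0, beside 2.94% of all tested genes. In that setting 9, 25, 15 and 13 genes of the lists were tested. Leaving out single libraries gave 0 to 1, 0 to 4, 0 to 3 and 0 to 2 calls, all of them without solitary replicate 3, with 0 to 1 induced and 0 to 1 repressed genes past the fold threshold. Without that library 391 of all 18055 tested genes were called (2.17%), 70 of them past the fold threshold. That library left out and the length trend removed, added with the data seen, gave 0, 1, 2 and 3 calls, with 2 induced and 1 repressed gene past the fold threshold. Of all 18055 tested genes 229 were then called (1.27%), 62 of them past the fold threshold. Pathway genes without overlap between conditions numbered 1 with the trend removed, beside 12.8% of all tested genes, and 2 to 6 over the single libraries left out. The 6 came without solitary replicate 3, where 34.1% of all tested genes had no overlap. That share was not computed for the other libraries left out. With the trend removed the log2 fold changes of akt-1 (-0.0228), akt-2 (-0.0119) and daf-18 (-0.0292) were negative, and without solitary replicate 3 as well they were -0.00312 for akt-1 and -0.0877 for akt-2. Leaving out single libraries gave -0.0115 to 0.0167 for akt-1, -0.0629 to 0.123 for akt-2, 0.17 to 0.31 for daf-16, -0.97 to 0.15 for hsp-16.2 (positive without solitary replicate 2), -0.132 to 0.0807 for the log2 ratio of akt-1 to akt-2 and -0.0237 to 0.124 for that of daf-16 to daf-2. The causes were not tested. Of 126 alternative fold changes of the pathway genes, 113 kept their direction and side of the threshold. Since 0 of the 9 genes were called as tested, a value that shrank toward 0 counts as kept. With the trend removed, daf-2 went from 0.18 to 0.05 and age-1 from 0.13 to 0.05, and both count as kept. The tally therefore does not measure how stable the sizes are.

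With the replicate number as a block, 0 of the 9 pathway genes were called and 24 of all tested genes, against 44 without it. The replicate block was not taken as a pairing. Deviations of same-numbered libraries correlated at 0.209, -0.301 and -0.298 over 10491 genes. The highest correlation, 0.437, was that of replicate 3 of worms grown 10 per plate with solitary replicate 2. Deviations were taken from each group's mean, which forces some negative values, so they cannot settle whether equal numbers mark pairs. For akt-2 and ist-1 counting error limits precision, with half-widths of up to 9.84% and 14%.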
